A study of Mus musculus with 16 samples.

Results

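The genes described are the mouse cytochrome P450 genes of families 1 to 3, followed in liver RNA of animals given diphenyl phosphate (DPhP), a breakdown product of aryl phosphate flame retardants and plasticizers. They were taken by symbol, as every Cyp1, Cyp2 or Cyp3 symbol with a subfamily letter and a number that had at least 10 counts over the 16 libraries. Of 58 such symbols among 53372 genes, 53 had 10 counts or more, and 48 of these passed the filter on low counts, among 17810 genes tested in all. FVB/NCrl mice received DPhP at 0 mg/L (CTRL), 0.1 mg/L (C1), 1 mg/L (C2) or 10 mg/L (C3). Livers were pooled within a group, and its 4 libraries are repeat preparations from that pool. Spread between libraries is therefore technical, p-values do not cover the spread between animals, and pool and concentration cannot be told apart. The sex, age and number of the animals and the route of exposure are not stated in the sources used here.

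Cytochromes P450 of these families are heme enzymes of the endoplasmic reticulum that oxidise drugs, pollutants, steroids and fatty acids with electrons from the reductase Por. The liver holds most of them in hepatocytes, many near the central vein. Foreign compounds induce Cyp1 genes through the aryl hydrocarbon receptor (AhR), and Cyp2b, Cyp2c and Cyp3a genes through the nuclear receptors CAR (Nr1i3) and PXR (Nr1i2), and in mice several Cyp2 and Cyp3 genes differ between the sexes under growth hormone.

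Library totals ran from 14434761 to 45109243 counts. Levels are counts scaled to library size by TMM (CPM), and changes are log2 fold changes ± SE from 1 edgeR quasi-likelihood fit over the 16 libraries, called at a Benjamini-Hochberg adjusted p under 0.05 over all genes tested. The 3 comparisons with CTRL share its libraries. C2-3, C2-4 and C3-4 stood apart: an index of nuclear-retained RNA (mean log2 CPM over Kcnq1ot1, Malat1, Neat1 and Xist) read 10.15, 10.07 and 9.97 there and at most 9.39 in the other 13 libraries, so results are also given without these 3. None of 10 hepatocyte markers was at 0, and they summed to 69640.2 to 85103 CPM for CTRL, 67804 to 76119 CPM for C1, 31736 to 80555 CPM for C2 and 37811 to 68194 CPM for C3. Of 8 kidney tubule markers 4 (Kap, Umod, Slc12a1, Aqp2) were at 0 in every library. All 8 summed to 2.89 to 5.58 CPM for CTRL, 4.13 to 4.80 CPM for C1, 2.94 to 5.77 CPM for C2 and 3.42 to 5.35 CPM for C3. None of 8 exocrine pancreas markers was at 0. They summed to 12.3 to 18.1 CPM for CTRL, 17.8 to 20.7 CPM for C1, 11.6 to 24.4 CPM for C2 and 12.6 to 19.8 CPM for C3.

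Per kb of exon the highest level was that of Cyp2e1, the ethanol- and acetaminophen-oxidising enzyme of hepatocytes near the central vein, at 1611 ± 142 CPM per kb in CTRL (SD, n = 4). Next in level came Cyp2a4, a steroid hydroxylase, at 555 ± 41.6 CPM per kb, Cyp2c40 at 527 ± 59.8 and Cyp2c69 at 504 ± 57.7, whose spreads overlap between neighbours in this order. Of the tested genes Cyp1a1, Cyp1b1, Cyp2c55, Cyp2c65, Cyp2c66, Cyp2s1 and Cyp2t4 were under 1 CPM per kb in CTRL. Cyp2d12, Cyp2j8, Cyp2j11, Cyp2j12 and Cyp3a57 had 10 to 110 counts over all libraries and did not pass the filter. The 53 genes took 1.04% (C2-4) to 1.94% (C2-2) of a library's counts.

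**Figure D1:**
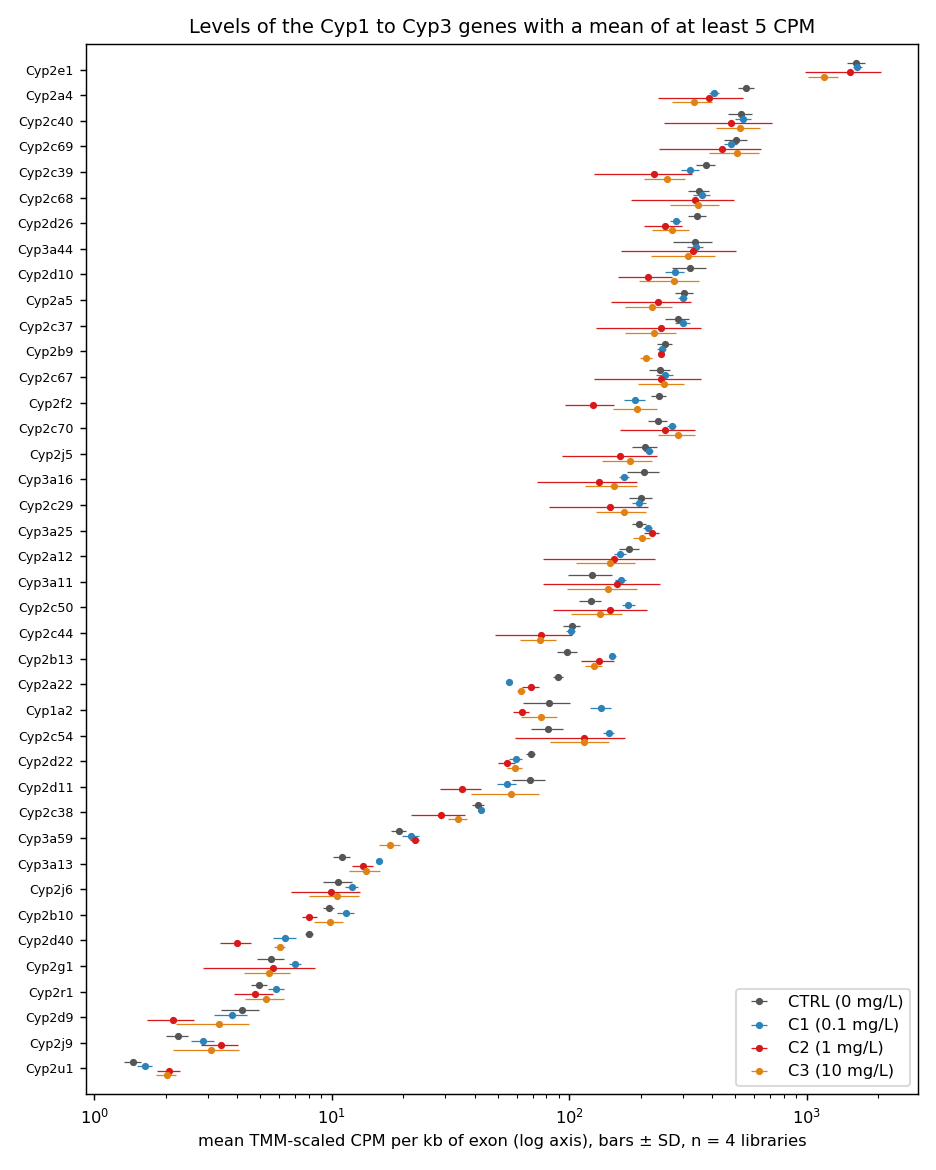
Mean CPM per kb of exon (log axis, bars ± SD, n = 4 libraries) of the 40 Cyp1 to Cyp3 genes averaging 5 CPM or more, at 0, 0.1, 1 and 10 mg/L DPhP. Cyp2e1 is highest at each concentration (1611 CPM per kb for CTRL), and bars are wide for many Cyp2c and Cyp3a genes of C2.

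At the lowest concentration Cyp1a2, Cyp2b13 and Cyp3a13 were higher than in CTRL and Cyp2a22 was lower, so that 3 of 48 genes rose and 1 fell, where 2.32% of all genes were called (0.938% higher and 1.39% lower). In C2, 3 genes were higher (Cyp2b13, Cyp2j9, Cyp2u1) and 9 lower (Cyp2a22, Cyp2c38, Cyp2c39, Cyp2c55, Cyp2d9, Cyp2d11, Cyp2d22, Cyp2d40, Cyp2f2), where 18.3% of all genes were called (8.03% higher and 10.2% lower). In C3, Cyp2a22 was lower and 0 genes were higher, where 1.4% of all genes were called (0.522% higher and 0.876% lower). DESeq2 called 6 there, where it called 3.66% of all genes. Of the 48, 14 had an unadjusted p under 0.05, and the share of all genes at that level was not counted. The median log2 fold change of the 48 genes was 0.03 in C1, -0.23 in C2 and -0.19 in C3, beside 0.01, 0.03 and 0.00 over all genes tested. Libraries did not overlap those of CTRL for 8 higher and 7 lower genes in C1 (8.03% and 10.1% of all genes), 6 and 13 in C2 (8.12% and 12.6%), and 3 and 11 in C3 (5.53% and 7.25%).

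The libraries that stood apart were low for many of these genes. Summed over the 53, C2-1 and C2-2 held 20001 and 20723 CPM, while C2-3 and C2-4 held 9999 and 11422. In C3 the sums were 18293, 15568, 15749.9 and 11305 CPM, against 16537, 19052, 19160.5 and 15989 in CTRL. Over the 40 genes averaging 5 CPM or more, C2-3 and C2-4 differed from C2-1 and C2-2 by a median log2 difference of -0.85, beside 0.09 over all genes tested, from -1.37 for Cyp3a11 to 0.37 for Cyp2j9. At or below -1 were 15 of the 40, beside 4.76% of all genes. The hepatocyte markers were low in the same libraries, at 31736 CPM in C2-3, 39260.0 in C2-4 and 37811 in C3-4. Sums of 12 endothelial markers, none at 0, were 234 to 252 CPM for CTRL, 276 to 305 CPM for C1, 339.5 to 399 CPM for C2 and 260.0 to 312 CPM for C3. In C2, 9 of the 12 rose, where 8.03% of all genes were higher. Without C2-3, C2-4 and C3-4, 6 rose in C1, 8 in C2 and 1 in C3, where 6.52%, 12.7% and 2.41% of all genes were higher. The part of nuclear RNA and of cell makeup in the P450 values was not tested, and in bulk RNA fewer cells of a type and less RNA per cell cannot be told apart.

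**Figure D2:**
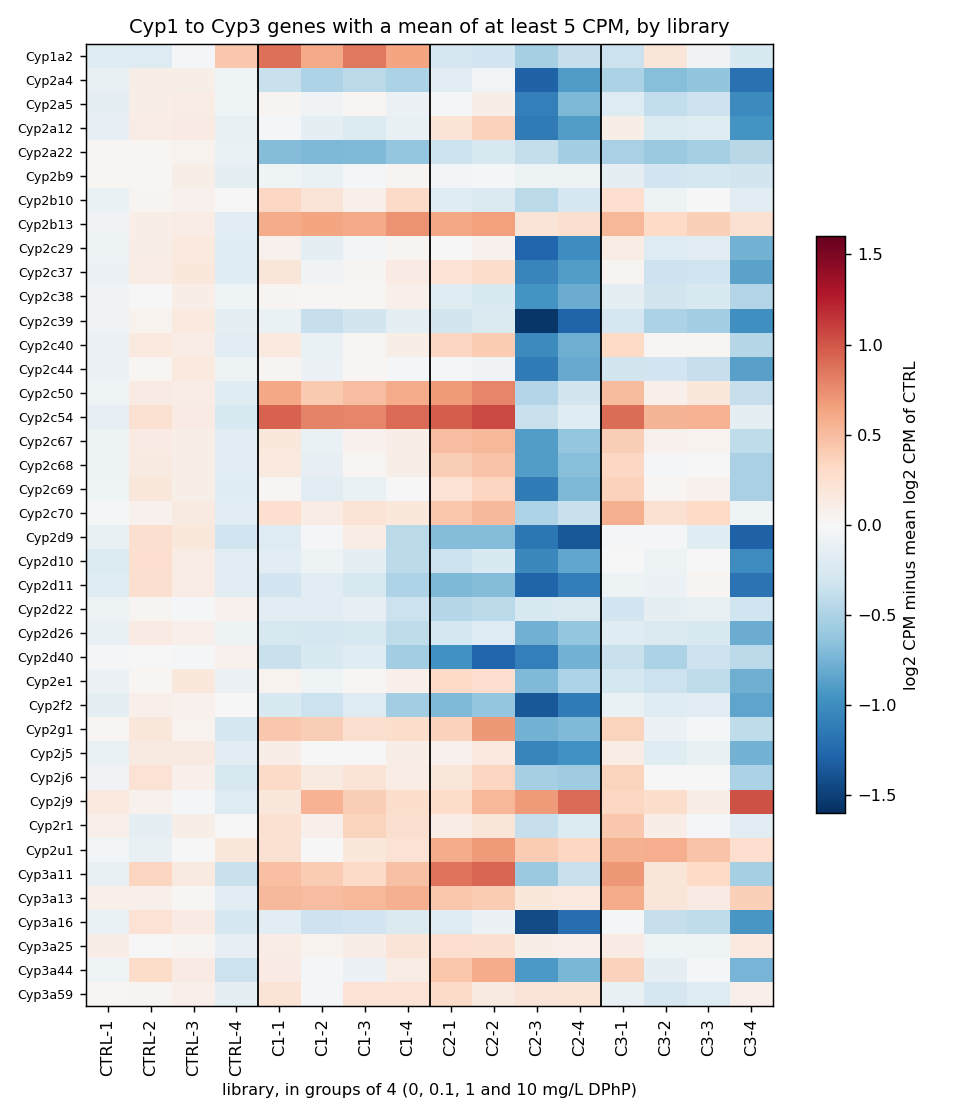
log2 CPM minus the CTRL mean of log2 CPM, for the 40 Cyp1 to Cyp3 genes averaging 5 CPM or more (rows) in each of the 16 libraries (columns, low to high concentration). C2-3, C2-4 and C3-4 are below CTRL for most Cyp2a and Cyp2c rows, while Cyp2a22 is below CTRL and Cyp2b13 above it in all 12 treated libraries.

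Without C2-3, C2-4 and C3-4, 50 of the genes were tested. In C1, 7 were higher and 7 lower, where 14.6% of all genes were called (6.52% higher and 8.04% lower). In C2, 17 were higher and 7 lower, where 28.0% were called (12.7% and 15.3%), and in C3, 5 were higher and 8 lower, where 6.09% were called (2.41% and 3.68%). The median log2 fold change in C2 was then 0.08, on the other side of 0 from the value with all libraries. Of the 12 genes called in C2 with all libraries 9 were called again, and Cyp2c38, Cyp2c39 and Cyp2c55 were not.

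**Figure D3:**
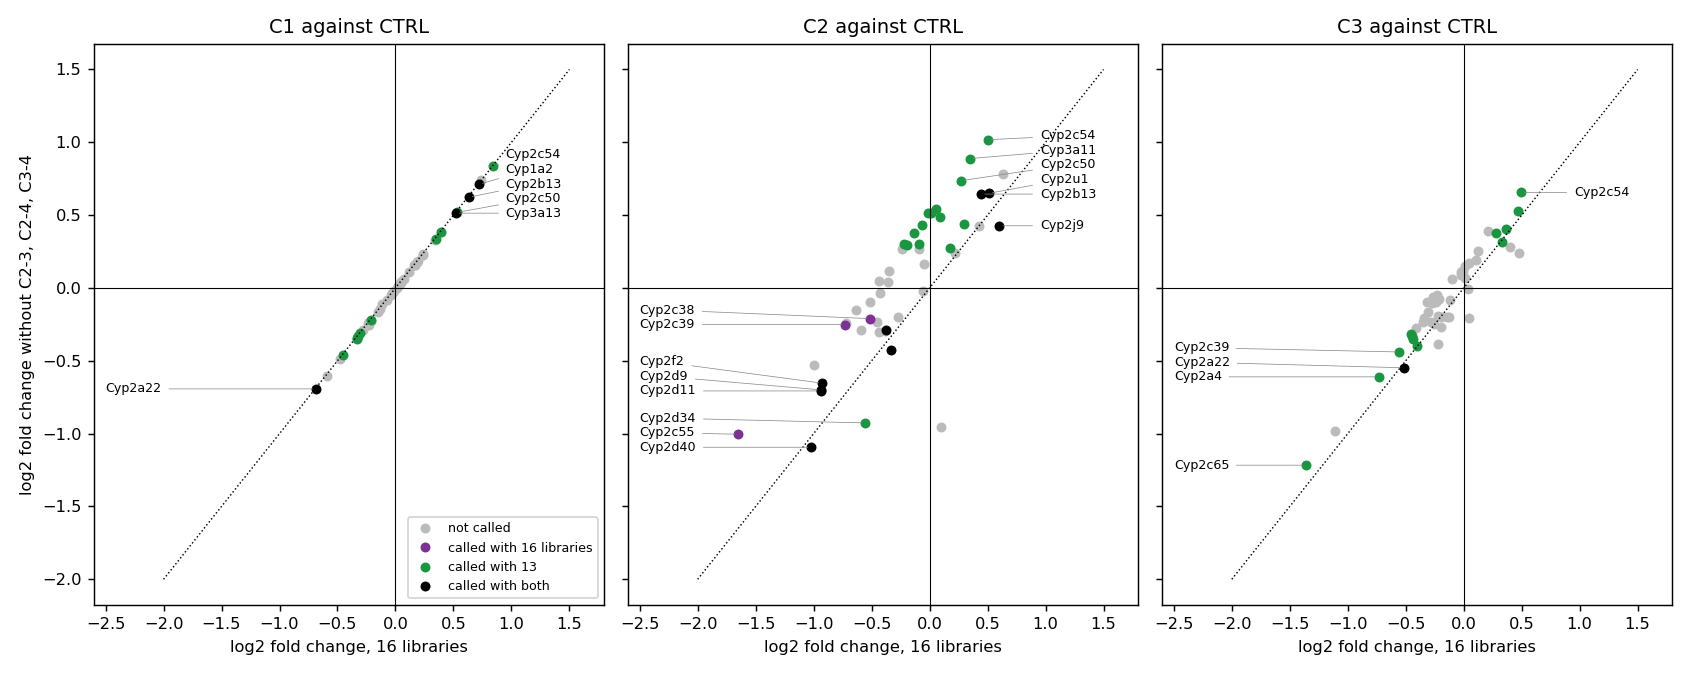
log2 fold change against CTRL of each tested gene with 16 libraries (x axis) and without C2-3, C2-4 and C3-4 (y axis), 1 panel each for C1, C2 and C3, coloured by edgeR call. In the C1 panel points lie near equality, and in the C2 panel most lie above it, such as Cyp3a11 at 0.35 with 16 libraries and 0.89 with 13.

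Cyp1a2 (chr9:57676937-57683703, GRCm38, as all coordinates here) oxidises aromatic amines and caffeine and is the AhR target that liver expresses without inducer. It was higher in C1. Cyp1a2 stood at 142, 141, 161 and 219 CPM for CTRL, 299.8, 247, 294 and 251 for C1, 136, 132, 113 and 126 for C2 and 128, 187, 157 and 137 for C3. Every C1 library was above every other library, of which CTRL-4 was the highest. The change in C1 (0.72 ± 0.15, edgeR adjusted p = 0.0176) was not called without C1-1, C1-3, CTRL-1, CTRL-2 or CTRL-3. Cyp1a2 was also lower in C2 than in C1 (-1.11 ± 0.16, edgeR adjusted p = 0.000493), 1 of 4 genes called in that comparison, all lower, where 2.06% of all genes were called and 1.58% were lower. It was lower in C3 than in C1 (-0.84 ± 0.15, edgeR adjusted p = 0.00914; 2 genes called, both lower, where 0.87% of all genes were called and 0.517% were lower), a call lost without C1-1.

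Cyp1a1 and Cyp1b1, the strongly inducible AhR targets, were barely detected and not called in any comparison with CTRL. Cyp1a1 stood at 0.64, 0.366, 0.655 and 0.687 CPM for CTRL, 0.794, 1.13, 0.824 and 0.379 for C1, 0.705, 1.31, 0.475 and 1.14 for C2 and 0.55, 0.62, 0.347 and 0.599 for C3, from 7 to 50 counts per library. Cyp1b1 stood at 0.4, 0.512, 0.312 and 0.646 CPM for CTRL, 0.265, 0.619, 0.15 and 0.19 for C1, 0.376, 0.367, 0.317 and 0.268 for C2 and 0.611, 0.143, 0.396 and 0.727 for C3, from 2 to 20 counts per library. For both genes each treated group overlapped CTRL.

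Among the 4 Cyp2a genes, whose products hydroxylate coumarin and steroids, Cyp2a22 (chr7:26931631-26939384) was the member called in all 3 comparisons with CTRL. Cyp2a22 stood at 312, 316, 321 and 287 CPM for CTRL, 191, 188, 189 and 201 for C1, 242, 259, 238 and 211 for C2 and 216, 205, 214 and 227 for C3. No treated library reached the lowest CTRL library, and all C1 libraries were below all of C2 and C3. The changes were -0.68 ± 0.10 (edgeR adjusted p = 0.00147) in C1, -0.38 ± 0.10 (edgeR adjusted p = 0.0182) in C2 and -0.52 ± 0.10 (edgeR adjusted p = 0.0172) in C3. The C1 call held with any 1 library left out, the C2 call was lost without C2-4, CTRL-2 or CTRL-3, and the C3 call without C3-2, C3-3, CTRL-2 or CTRL-3. C2-3 and C2-4 were near C2-1 and C2-2 for this gene (log2 difference -0.16). The C2 call was also lost with upper-quartile scaling, with no filter and in a fit of CTRL and C2 only, and the C3 call with no filter. Cyp2a4, Cyp2a5 and Cyp2a12 were not called. Without the 3 libraries Cyp2a4 was lower in C1 (-0.46 ± 0.08, edgeR adjusted p = 0.000169) and in C3 (-0.61 ± 0.08, edgeR adjusted p = 3.64e-05), and Cyp2a5 was lower in C3 (-0.31 ± 0.08, edgeR adjusted p = 0.023). Cyp2a12 was then higher in C2 (0.30 ± 0.10, edgeR adjusted p = 0.0301), with the sign turned from -0.22 with all libraries.

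Of the 3 Cyp2b genes, relatives that oxidise barbiturates and steroids, Cyp2b13 (chr7:26061497-26096197) was higher in C1 and C2. Cyp2b13 stood at 176, 197, 199 and 163 CPM for CTRL, 277, 283, 279.7 and 300.3 for C1, 281, 288, 212 and 219 for C2 and 264, 228, 239 and 217 for C3. All 12 treated libraries were above all CTRL libraries. The changes were 0.63 ± 0.13 (edgeR adjusted p = 0.0124) in C1, 0.45 ± 0.13 (edgeR adjusted p = 0.0227) in C2 and 0.37 ± 0.13 (edgeR adjusted p = 0.168) in C3. Without C2-3, C2-4 and C3-4 the change in C3 was 0.40 ± 0.08 (edgeR adjusted p = 0.00309). The C1 call was lost without C1-4 or CTRL-4, and the C2 call without C2-1, CTRL-1 or CTRL-4. With no filter neither was made, and the C2 call was lost in a fit of CTRL and C2 only. Its neighbour Cyp2b9 (chr7:26173411-26210661) overlapped CTRL in each treated group and was not called (-0.04 ± 0.11, edgeR adjusted p = 0.907 in C1). Cyp2b10, the usual marker of CAR activity, stood at 19.1, 21.2, 21.6 and 20.4 CPM for CTRL, 25.9, 23.7, 21.7 and 25.4 for C1, 18, 17.5, 15.2 and 17.1 for C2 and 24.8, 19.4, 20.4 and 18.2 for C3. All C1 libraries were above CTRL and all C2 libraries below it. Cyp2b10 was not called against CTRL (0.24 ± 0.11, edgeR adjusted p = 0.28 in C1, and -0.28 ± 0.11, edgeR adjusted p = 0.0783 in C2) and was lower in C2 than in C1 (-0.51 ± 0.11, edgeR adjusted p = 0.0157), a call lost without C1-1, C1-2, C1-4 or C2-3, with no filter and in a fit of C1 and C2 only.

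Cyp2b13 and Cyp2b9 are shown by the 250 bases before their starts, since their levels differed in response while these stretches match in 248 of 250 bases. The stretches are chr7:26061245-26061494 and chr7:26173159-26173408 on the plus strand (RefSeq, GRCm38.p6), and capitals mark the differing bases.
Cyp2b13: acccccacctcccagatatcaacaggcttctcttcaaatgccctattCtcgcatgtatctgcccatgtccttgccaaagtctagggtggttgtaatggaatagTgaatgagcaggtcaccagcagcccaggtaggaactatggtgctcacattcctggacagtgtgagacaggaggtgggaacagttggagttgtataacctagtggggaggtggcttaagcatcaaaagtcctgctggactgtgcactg
Cyp2b9: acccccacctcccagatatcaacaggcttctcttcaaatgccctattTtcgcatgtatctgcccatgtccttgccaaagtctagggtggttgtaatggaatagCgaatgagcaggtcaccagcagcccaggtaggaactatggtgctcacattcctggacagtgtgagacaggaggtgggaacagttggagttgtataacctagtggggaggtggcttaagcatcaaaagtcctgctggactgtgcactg

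Of the 15 Cyp2c genes, whose products oxidise fatty acids, retinoids and drugs, 3 were lower and 0 higher in C2, beside 10.2% and 8.03% of all genes, with a median log2 fold change of -0.24. Without the 3 libraries the direction turned: 0 were lower and 7 higher, beside 15.3% and 12.7% of all genes, with a median of 0.27. Cyp2c39, a retinoic acid hydroxylase, stood at 657, 709, 761 and 617 CPM for CTRL, 636, 529, 558 and 618 for C1, 557, 585, 233 and 281 for C2 and 569.8, 483, 468 and 347 for C3. All libraries of C2 and C3 were below CTRL, and C2-3 and C2-4 were its lowest libraries. Its change in C2 (-0.73 ± 0.24, edgeR adjusted p = 0.0441) was -0.25 ± 0.11 (edgeR adjusted p = 0.0775) without the 3 libraries. The C2 call was also lost with any 1 of 12 libraries left out, with DESeq2's size factors, with upper-quartile scaling and in a fit of CTRL and C2 only. In C3 the change of Cyp2c39 was -0.55 ± 0.24 (edgeR adjusted p = 0.268) with all libraries and -0.44 ± 0.09 (edgeR adjusted p = 0.00493) without the 3. Cyp2c38 stood at 114, 119, 127 and 113 CPM for CTRL, 122, 119, 121 and 125 for C1, 103, 99.7, 61.1 and 68 for C2 and 107, 96.4, 99.9 and 85.6 for C3. All C2 libraries were below CTRL, and the change was -0.51 ± 0.15 (edgeR adjusted p = 0.0224) with all libraries and -0.21 ± 0.08 (edgeR adjusted p = 0.054) without the 3. It was not called without C2-3, C2-4, CTRL-2 or CTRL-3, or in a fit of CTRL and C2 only.

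Cyp2c55 stood at 0.52, 0.622, 0.717 and 0.242 CPM for CTRL, 0.331, 0.45, 0.6 and 0.474 for C1, 0.258, 0.262, 0 and 0 for C2 and 0.397, 0.381, 0.446 and 0.599 for C3, with 6 to 23 counts per CTRL library. C2-3 and C2-4 had 0 counts, and the change in C2 (-1.65 ± 0.55, edgeR adjusted p = 0.0467) was not called without the 3 libraries (edgeR adjusted p = 0.128), with any 1 of 13 libraries left out, with upper-quartile scaling, with no filter or with the replicate number as a block. Cyp2c29, a CAR target, stood at 578, 658, 683 and 535 CPM for CTRL, 639, 548, 590.1 and 627 for C1, 614, 639.9, 253 and 308 for C2 and 660.2, 528, 537 and 361 for C3. Each group overlapped CTRL, and it was not called (-0.43 ± 0.25, edgeR adjusted p = 0.229 in C2).

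Cyp2c54 was chosen for description after its values were seen. Cyp2c54 stood at 132, 171, 158 and 122 CPM for CTRL, 278, 250.2, 249 and 269.9 for C1, 283, 301, 113 and 126 for C2 and 269, 210.2, 212 and 129.5 for C3. All C1 libraries, C2-1, C2-2 and 3 of the C3 libraries were above CTRL, while C2-3, C2-4 and C3-4 were not. The change in C1 was 0.85 ± 0.27 (edgeR adjusted p = 0.129) with all libraries, and without the 3 it was 0.84 ± 0.10 (edgeR adjusted p = 2.45e-06) in C1, 1.02 ± 0.12 (edgeR adjusted p = 9.62e-07) in C2 and 0.66 ± 0.11 (edgeR adjusted p = 0.00033) in C3. Near-identical copies limit the Cyp2c values: of 100-base windows 64.6% are unique to the gene in Cyp2c69, 65.6% in Cyp2c40, 76.3% in Cyp2c67, 80.2% in Cyp2c68 and 92.4% in Cyp2c54. The read length is not stated, and of 50-base windows these shares are 45.7% in Cyp2c69, 39.7% in Cyp2c40, 47.2% in Cyp2c67, 56.7% in Cyp2c68 and 74.3% in Cyp2c54.

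Cyp2c65 (chr19:39061015-39093944), a gene known from the gut, was lower in C2 and C3 than in C1. It had 24, 24, 33 and 20 counts for CTRL, 55, 17, 22 and 36 for C1, 28, 23, 6 and 1 for C2 and 19, 6, 5 and 6 for C3, or 0.961, 0.878, 1.03 and 0.808 CPM for CTRL, 1.82, 0.956, 1.65 and 1.71 for C1, 0.658, 0.603, 0.317 and 0.0671 for C2 and 0.581, 0.286, 0.248 and 0.257 for C3. C1 libraries were above all of C2 and C3, and 3 of them were above all of CTRL. All libraries of C2 and C3 were also below all of CTRL. With all 16 libraries Cyp2c65 was not called against CTRL in C2 (edgeR adjusted p = 0.0843). Nor was it called in C3 (-1.36 ± 0.41, edgeR adjusted p = 0.116). Without C2-3, C2-4 and C3-4 it was lower than CTRL in C3 (-1.22 ± 0.35, edgeR adjusted p = 0.0387). It was then not called in C2 (-0.53 ± 0.34, edgeR adjusted p = 0.273). The change was -1.74 ± 0.39 (edgeR adjusted p = 0.0257) in C2 against C1 and -2.10 ± 0.41 (edgeR adjusted p = 0.0144) in C3 against C1, calls lost without C1-1, C1-3, C1-4 or C2-3 and without C1-1, C1-4, C3-2, C3-3 or C3-4. The C2 against C1 call was also lost in a fit of C1 and C2 only. Of 13 tested intestinal markers 6 rose and 1 fell in C1, 1 rose and 9 fell in C2, and 8 fell in C3 against CTRL. With 13 libraries 14 were tested and 9 rose and 2 fell in C1, 1 rose and 10 fell in C2, and 1 rose and 11 fell in C3. Over all genes 2.32%, 18.3% and 1.4% were called in these groups, or 14.6%, 28.0% and 6.09% with 13 libraries. All 16, none of them at 0 throughout, summed to 725 to 1007 CPM for CTRL, 466 to 589 CPM for C1, 320.4 to 475 CPM for C2 and 312 to 594 CPM for C3. The sum was lower in C1 than in CTRL, while the median log2 fold change of the 13 tested markers was positive there. That median was -3.73 in C2 and -3.27 in C3 against CTRL, with all 16 libraries. The sum therefore does not give the direction of most of these markers in C1. The part of intestinal markers in the Cyp2c65 values was not tested.

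Cyp2c65 and its neighbour Cyp2c66 had equal counts in 7 of 16 libraries, 7 of them among the 8 libraries of C2 and C3. Their coding sequences of 1470 bases differ by 54 substitutions (96.3% identity) and share a run of 230 bases. The stretch with that run is shown for this reason, coding positions 945 to 1234 of exons 6 to 8 in GENCODE M21 (chr19:39082319-39090712 for Cyp2c65 and chr19:39171051-39183876 for Cyp2c66, introns included), with capitals at the differing bases. How reads that match both genes were counted is not stated, so each value is uncertain.
Cyp2c65: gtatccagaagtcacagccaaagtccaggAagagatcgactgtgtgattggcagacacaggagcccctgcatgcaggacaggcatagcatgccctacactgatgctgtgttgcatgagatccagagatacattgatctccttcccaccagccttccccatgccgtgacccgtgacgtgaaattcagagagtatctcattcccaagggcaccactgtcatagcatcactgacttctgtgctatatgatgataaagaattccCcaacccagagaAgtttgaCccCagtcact
Cyp2c66: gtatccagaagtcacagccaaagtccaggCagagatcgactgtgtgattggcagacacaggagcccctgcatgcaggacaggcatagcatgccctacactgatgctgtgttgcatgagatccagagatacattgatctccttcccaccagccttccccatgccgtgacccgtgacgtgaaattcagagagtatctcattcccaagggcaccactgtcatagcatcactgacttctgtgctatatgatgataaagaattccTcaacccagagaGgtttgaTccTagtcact

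Of the 7 tested Cyp2d genes, whose products oxidise amine drugs and steroids, 4 fell in C2, where 10.2% of all genes were lower, and all 7 had a negative log2 fold change there (median -0.59). Without the 3 libraries 5 of 8 fell in C2, where 15.3% of all genes were lower (median -0.56). Cyp2d40 (chr15:82759833-82764183) stood at 14.1, 14.4, 14.1 and 15.2 CPM for CTRL, 11.3, 12.2, 12.7 and 9.77 for C1, 7.38, 5.98, 6.76 and 8.52 for C2 and 11.3, 10.2, 11.4 and 10.7 for C3. All C2 libraries were below all other libraries. The mean log2 CPM of C2-3 and C2-4 was not below that of C2-1 and C2-2 (log2 difference 0.19), though C2-3 was below C2-1. The change in C2 was -1.02 ± 0.12 (edgeR adjusted p = 3.11e-05), and it held with any 1 library left out. Cyp2d40 was lower in C2 than in C1 (-0.68 ± 0.12, edgeR adjusted p = 0.00385) and higher in C3 than in C2 (0.62 ± 0.12, edgeR adjusted p = 0.0134), the 1 gene called there, where 1.44% of all genes were called and 1.17% were higher. In fits of the 2 groups compared only, neither of these was called, and the C3 against C2 call was also lost without C3-3.

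Cyp2d11 stood at 93.8, 128, 116 and 94.7 CPM for CTRL, 87, 94.2, 89.6 and 76.2 for C1, 65.2, 66.2, 44.2 and 49.7 for C2 and 102, 101, 110.4 and 47.2 for C3. All C2 libraries were below CTRL, C3-4 alone of C3 was, and C1 overlapped it; the change in C2 was -0.94 ± 0.21 (edgeR adjusted p = 0.0058). Cyp2d9, a steroid hydroxylase higher in male mice, stood at 10.1, 13.1, 12.3 and 8.81 CPM for CTRL, 9.5, 10.7, 11.9 and 8.16 for C1, 6.79, 6.77, 4.91 and 4.3 for C2 and 10.8, 10.8, 9.56 and 4.45 for C3. The same held for Cyp2d9, with a change in C2 of -0.94 ± 0.23 (edgeR adjusted p = 0.0104). Cyp2d22 changed by less in C2 (-0.34 ± 0.11, edgeR adjusted p = 0.0398). Of 100-base windows 87.8% are unique to the gene in Cyp2d11, and all of those of Cyp2d40 are, while of 50-base windows 62.8% are in Cyp2d11 and 85.5% in Cyp2d40.

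Cyp2e1 was not called with all libraries. Cyp2e1 stood at 3236, 3543, 3882 and 3244 CPM for CTRL, 3604, 3319, 3499 and 3679 for C1, 4329.8, 4174, 2126 and 2454 for C2 and 2860.0, 2743, 2611 and 2026 for C3. C2-1 and C2-2 were above CTRL, and C2-3, C2-4 and all of C3 were below it. Its change in C3 was -0.44 ± 0.21 (edgeR adjusted p = 0.306) with all libraries and -0.35 ± 0.08 (edgeR adjusted p = 0.0123) without the 3, and in C2 it was -0.09 ± 0.21 (edgeR adjusted p = 0.794) and 0.30 ± 0.09 (edgeR adjusted p = 0.0157). Cyp2f2 (chr7:27119909-27133660), a naphthalene-oxidising enzyme of periportal hepatocytes, stood at 434, 511, 505 and 479 CPM for CTRL, 408, 379, 416 and 328 for C1, 295, 312, 188 and 221 for C2 and 446, 421, 426 and 269 for C3. All libraries of C1 and C2 were below CTRL, and it fell in C2 (-0.92 ± 0.18, edgeR adjusted p = 0.00219), also without the 3 libraries (-0.65 ± 0.10, edgeR adjusted p = 2.9e-05).

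Cyp2u1 (chr3:131288441-131303227), a fatty acid hydroxylase, stood at 7.4, 7.03, 7.54 and 8.52 CPM for CTRL, 9.03, 7.65, 8.54 and 8.91 for C1, 11.5, 12.2, 10.1 and 9.53 for C2 and 11.3, 11.3, 10.4 and 9.16 for C3. All libraries of C2 and C3 were above CTRL, and the gene rose in C2 (0.51 ± 0.12, edgeR adjusted p = 0.00606). In C3 its log2 fold change was 0.47 with all libraries, not called, and 0.53 without the 3 libraries, called by edgeR. Cyp2j9, of a subfamily that epoxidises arachidonic acid, stood at 8.29, 7.8, 7.32 and 6.46 CPM for CTRL, 8.44, 10.9, 9.74 and 9.06 for C1, 9.11, 10.8, 11.9 and 13.9 for C2 and 9.35, 9.01, 8.03 and 15.1 for C3. All C2 libraries were above CTRL, with C2-4 highest of the 4, and its rise in C2 (0.60 ± 0.18, edgeR adjusted p = 0.0273) was not called without C2-4, CTRL-3 or CTRL-4. Cyp2r1, a vitamin D 25-hydroxylase, stood at 11, 9.33, 11.1 and 10.3 CPM for CTRL, 12.3, 11, 13.3 and 12.4 for C1, 11.3, 11.9, 8.02 and 8.93 for C2 and 14.1, 11.2, 10.3 and 9.16 for C3. Each group overlapped CTRL, and it was not called (0.23 ± 0.14, edgeR adjusted p = 0.461 in C1). Cyp2g1, Cyp2j5, Cyp2j6, Cyp2s1 and Cyp2t4 were tested and not called; without the 3 libraries Cyp2g1 was higher in C2 (0.54 ± 0.13, edgeR adjusted p = 0.0031).

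Of the 6 tested Cyp3a genes, which carry much of drug and steroid oxidation, Cyp3a13 (chr5:137892932-137921619) was called, in C1. Cyp3a13 stood at 34.3, 34.5, 32.9 and 28.6 CPM for CTRL, 46.6, 45.6, 46.8 and 48.2 for C1, 44.3, 43, 36.6 and 36.2 for C2 and 49, 37.1, 35.5 and 42.3 for C3. All treated libraries were above CTRL. The change was 0.52 ± 0.11 (edgeR adjusted p = 0.0176) in C1, 0.30 ± 0.11 (edgeR adjusted p = 0.0696) in C2 and 0.33 ± 0.11 (edgeR adjusted p = 0.155) in C3, and the C1 call was lost without C1-1, C1-2, C1-3, C1-4, CTRL-2, CTRL-3 or CTRL-4, and with no filter. Cyp3a11, the main PXR-inducible gene of mouse liver, stood at 575, 795, 689 and 489 CPM for CTRL, 876, 831, 777 and 869 for C1, 1145, 1191, 413 and 491 for C2 and 1016, 719, 781 and 435 for C3. C2 split into a pair above CTRL and a pair near its low end. Its change in C2 was 0.35 ± 0.30 (edgeR adjusted p = 0.44) with all libraries and 0.89 ± 0.15 (edgeR adjusted p = 0.000291) without the 3. Cyp3a16, Cyp3a25, Cyp3a44 and Cyp3a59 were tested and not called. With the 3 left out, 2 of 7 Cyp3a genes rose in C1, 4 rose in C2, 1 rose in C3 and 0 fell, beside 6.52%, 12.7% and 2.41% of all genes higher.

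**Figure D4:**
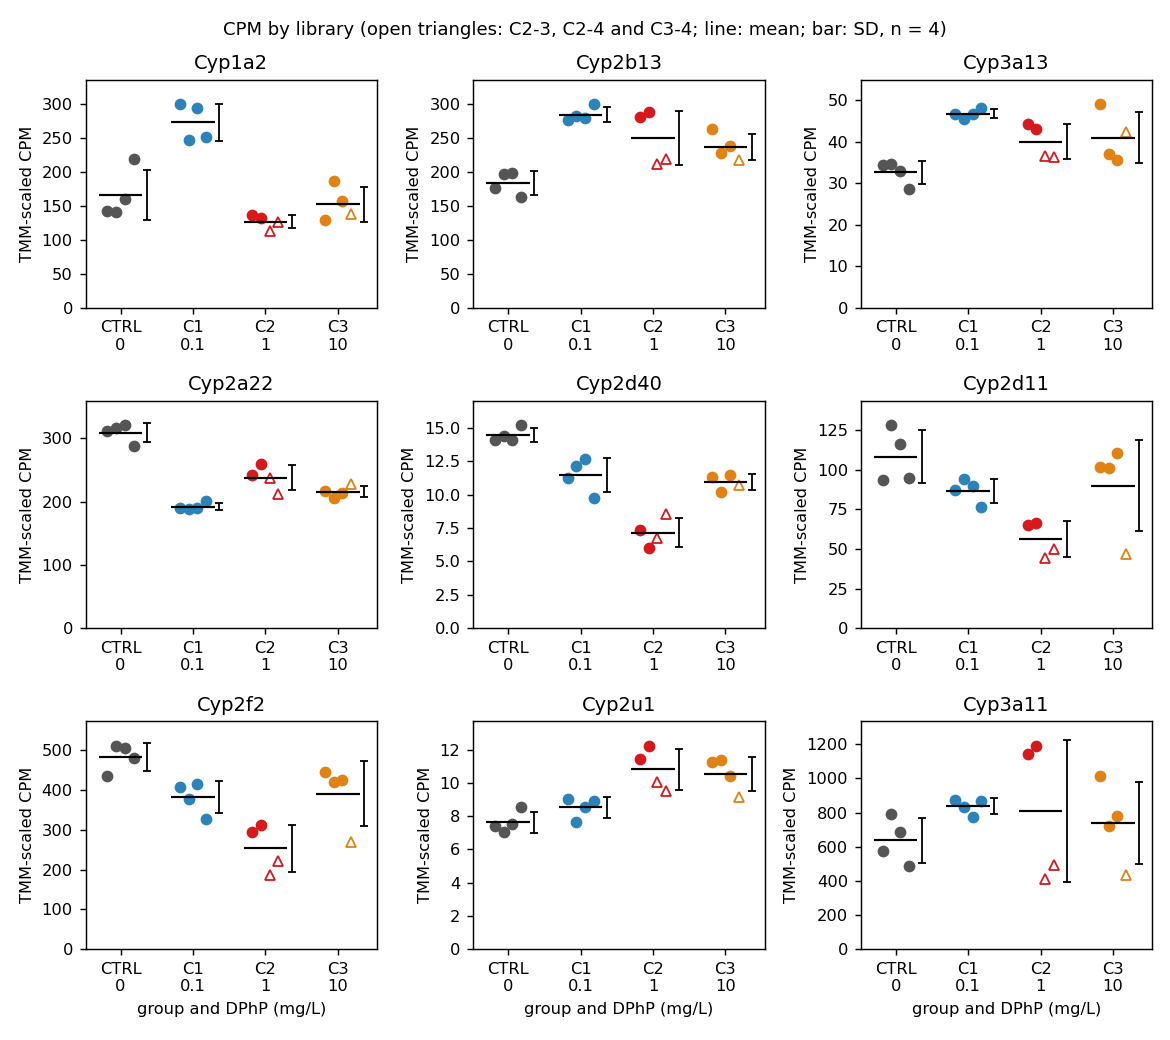
CPM of 9 genes in each library against DPhP concentration (points, open triangles for C2-3, C2-4 and C3-4; lines are means and bars SD, n = 4). Cyp2a22 is below CTRL in all 12 treated libraries, Cyp2d40 is lowest in C2, and the C2 libraries of Cyp3a11 split into 1145 and 1191 against 413 and 491 CPM.

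A ratio of related genes within a library does not depend on that library's depth or scaling. Over 108 pairs within a subfamily the ratio did not overlap CTRL for 63 pairs at C1, 63 pairs at C2 and 62 pairs at C3 (58.3%, 58.3% and 57.4%), where 23.3%, 23.8% and 15.6% of 52249753 pairs of genes averaging 5 CPM or more did so. In 39 pairs (36.1%, beside 5.93% of all pairs) the 3 treated groups were on 1 side of CTRL. Pairs of a subfamily share genes, so that they are not independent. The pairs of all genes were not matched to the subfamily pairs in level or in shared changes between libraries. The part of level and of shared changes in the higher shares was not tested.

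The pairs that follow were chosen after their values were seen and are given with no test. Cyp2b13 over Cyp2b9 was 0.365 to 0.412 for CTRL, 0.602 to 0.643 for C1, 0.473 to 0.617 for C2 and 0.566 to 0.617 for C3. Cyp2c54 over Cyp2c37 was 0.268 to 0.303 for CTRL, 0.466 to 0.5 for C1, 0.451 to 0.476 for C2 and 0.451 to 0.511 for C3. Both ratios were above CTRL in every treated library, C2-3, C2-4 and C3-4 included. Cyp3a11 over Cyp3a16 was 1.66 to 1.91 for CTRL, 2.73 to 2.96 for C1, 3.15 to 3.74 for C2 and 2.36 to 2.95 for C3, again above CTRL throughout. Cyp2a4 over Cyp2a5 was 1.51 to 1.56 for CTRL, 1.11 to 1.16 for C1, 1.33 to 1.4 for C2 and 1.24 to 1.36 for C3, below CTRL throughout and lowest in C1. The part of reads shared between near-identical copies was not tested.

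**Figure D5:**
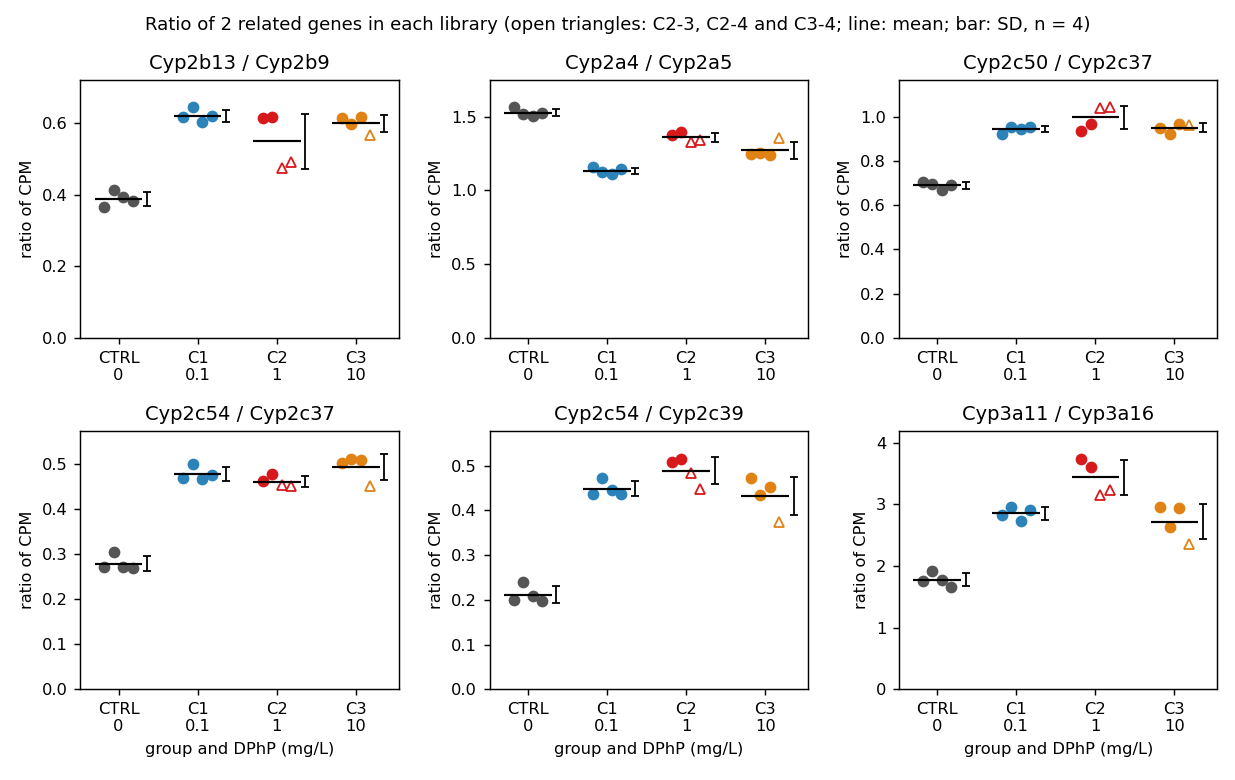
CPM of a gene over that of a relative in each library against DPhP concentration, for 6 pairs chosen after their values were seen (points, open triangles for C2-3, C2-4 and C3-4; lines are means and bars SD, n = 4). No treated library reaches the CTRL range in these pairs.

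Promoters, the 250 bases before a gene's start, were in the RefSeq table for 46 of the 53 genes (48 promoters) and were searched on both strands. TATAAA was in 47.9% of them, beside 12.4% of 32851 promoters. CAAAGTCCA, an HNF4 site, was in 16.7%, beside 0.384%, those of Cyp2c40, Cyp2c65, Cyp2c67, Cyp2c68, Cyp2c69, Cyp2c70, Cyp3a11 and Cyp3a16. AGGTCA, a nuclear receptor half-site, was in 29.2%, beside 14%, Cyp2b13 and Cyp2b9 included. GCGTG, the AhR core, was in 12.5%, beside 28.2%, with Cyp1a1 and Cyp1b1 among them and Cyp1a2 not. Near-identical promoters are counted separately, and a match describes letters in this window only.

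Lists of genes that serve or control the P450 enzymes are given by their counts. Over all genes 2.32% were called in C1, 18.3% in C2 and 1.4% in C3, or 14.6%, 28.0% and 6.09% without the 3 libraries. Of 17 redox and heme supply genes 1 fell in C1, where 1.39% of all genes were lower. In C2, 0 rose and 4 fell (23.5%), where 8.03% of all genes were higher and 10.2% lower. With those 3 libraries left out, 0 rose and 4 fell in C1, 2 rose and 4 fell in C2, and 0 rose and 2 fell in C3. Alas1, the first enzyme of heme synthesis, averaged 339 ± 16.5 CPM in C1, against 717 ± 43.5 in CTRL (SD, n = 4; -1.08 ± 0.17, edgeR adjusted p = 0.00212), and it fell likewise in C2 (-1.06 ± 0.17, edgeR adjusted p = 0.000635). Por (-0.62 ± 0.19, edgeR adjusted p = 0.0333) and the heme synthesis enzymes Cpox (-0.73 ± 0.14, edgeR adjusted p = 0.00162) and Fech (-0.43 ± 0.12, edgeR adjusted p = 0.0175) fell in C2.

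Of 25 receptors and factors 1 rose and 2 fell in C1, and 2 rose and 3 fell in C2 (5 of 25, near the share of all genes called in either direction). With 13 libraries 26 were tested and 3 rose and 6 fell in C1, 2 rose and 11 fell in C2, and 3 rose and 1 fell in C3. Hnf4a, a factor that maintains hepatocyte genes, averaged 256 ± 13.8 CPM in C2, against 397 ± 39.1 in CTRL (-0.63 ± 0.12, edgeR adjusted p = 0.0015) and fell in C1 too (-0.45 ± 0.12, edgeR adjusted p = 0.049). Onecut1 fell (-0.67 ± 0.13, edgeR adjusted p = 0.00911) and Ppargc1a rose (0.52 ± 0.10, edgeR adjusted p = 0.0124) in C1. In C2 Rxra, the partner of CAR and PXR, fell (-0.69 ± 0.13, edgeR adjusted p = 0.00153), and Nr2f2 (0.64 ± 0.10, edgeR adjusted p = 0.000411) and the bile acid receptor Nr1h4 (0.41 ± 0.10, edgeR adjusted p = 0.00854) rose. Nr1i2, Nr1i3 and Ahr were not called in any comparison with CTRL. Without the 3 libraries the log2 fold change in C2 was -0.48 (edgeR adjusted p = 0.00604) for Nr1i3, where it was 0.33 with all libraries, and -0.31 (edgeR adjusted p = 0.00599) for Nr1i2.

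Of 8 AhR targets outside the P450 genes 1 rose and 1 fell in C1 and 3 fell in C2 (37.5%). Their list shares Ahrr with that of receptors and factors. With 13 libraries 9 were tested and 2 rose and 2 fell in C1, 0 rose and 3 fell in C2, and 0 rose and 3 fell in C3. Gsta1, a glutathione transferase, averaged 7.56 ± 1.2 CPM in C1, against 3.78 ± 0.621 in CTRL (1.00 ± 0.24, edgeR adjusted p = 0.0332) and fell in C2 (-0.97 ± 0.25, edgeR adjusted p = 0.0149). Tiparp fell in C1 (-0.47 ± 0.10, edgeR adjusted p = 0.0205) and C2 (-0.44 ± 0.10, edgeR adjusted p = 0.00846), and Ugt1a6a fell in C2 (-0.44 ± 0.14, edgeR adjusted p = 0.0369). Of 29 CAR and PXR targets outside the P450 genes 1 rose and 1 fell in C1. In C2, 1 rose and 13 fell (48.3%). Their list shares Alas1, Por, Gsta1 and Gsta2 with those above. With 13 libraries 30 were tested and 7 rose and 4 fell in C1, 5 rose and 12 fell in C2, and 1 rose and 9 fell in C3. Among them Ces2c, a carboxylesterase, averaged 8.41 ± 2.9 CPM in C2, against 15.4 ± 3.18 in CTRL (-0.85 ± 0.23, edgeR adjusted p = 0.0185). Meg3 rose (1.23 ± 0.39, edgeR adjusted p = 0.0379), and its log2 fold change was 0.33 without the 3 libraries (edgeR adjusted p = 0.367). In C3 edgeR called 0 genes of these 4 lists with all 16 libraries, where 1.4% of all genes were called. DESeq2 called 0, 3, 1 and 5, in the order given, where it called 3.66% of all genes. At an unadjusted p under 0.05 were 4, 6, 4 and 9, and the share of all genes at that level was not counted.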

How the data were processed

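The values used are the deposited counts, whole numbers of reads per gene and library that had not been normalised. The submitters' processing notes name FastQC 0.11.5, bcl2fastq 2.19.1.403, GRCm38 and STAR 2.5.2b. Per the labels' protocols poly(A) RNA went into a directional library kit. The counting program, its strand setting, its handling of reads shared by genes, the read length and the annotation release are not stated in the sources used here.

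Of 32916 genes with a count, 17810 passed filterByExpr. The fit was edgeR 4.0.16 in R 4.3.3 with TMM scaling, group as the only term and 12 residual degrees of freedom. A check on simulated counts drew libraries independently, so it does not cover the shift of C2-3, C2-4 and C3-4 or the spread between animals. Alternatives were DESeq2 1.42.0, other scalings and filters, a replicate block, fits of the compared groups only, and libraries left out. Genes given in every library were 10 chosen enzymes, the 12 members with the largest change among those called against CTRL and averaging at least 1 CPM in a group (Cyp2c55 did not), members called in all 3 comparisons with CTRL, and members called between treated groups with a log2 change of at least 1. Cyp2c54, Cyp2a4, Cyp2a5, Cyp2a12, Cyp2b9, Cyp2d22, Cyp2g1 and the ratio pairs were added after their values were seen. From each gene list up to 4 called genes with the largest change per comparison were named. The genes, lists and tests were chosen with earlier results of these data known. Coordinates and exon lengths are from GENCODE M21, which held 53267 of 53372 identifiers.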

Additional observations from a re-analysis of the deposited data

Results flagged for a closer look

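For 21 genes in 4 groups each, a library was singled out where its gap to the nearest other library took more of the group's range than Dixon's 95% limit. Chance singles out about 1 in 20 groups, and 4 of 84 were singled out. Cyp1a1 had 0.366 CPM in CTRL-2 and 0.64 to 0.687 in the other CTRL libraries. Cyp2c65 had 0.581 CPM in C3-1 and 0.248 to 0.286 in the other C3 libraries. Cyp2d11 had 47.2 CPM in C3-4 and 101 to 110.4 in the other C3 libraries. Cyp2f2 had 269 CPM in C3-4 and 421 to 446 in the other C3 libraries. C3-4 is also a library with a high index of nuclear-retained RNA, whose part was not tested.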

How the results depend on the processing

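With all 16 libraries, 4 Cyp1 to Cyp3 genes were called in C1, 12 in C2 and 1 in C3 against CTRL, 4 in C2 against C1, 2 in C3 against C1 and 1 in C3 against C2. Without C2-3, C2-4 and C3-4 these counts were 14, 24, 13, 21, 6 and 17, where 14.6%, 28.0%, 6.09%, 18.7%, 3.41% and 14.3% of all genes were called, beside 2.32%, 18.3%, 1.4%, 2.06%, 0.87% and 1.44% with all libraries. Fits of the compared groups only gave 14, 6, 2, 1, 2 and 0, where 15.2%, 8.74%, 1.78%, 0.569%, 1.12% and 0.0844% of all genes were called. With no filter on low counts 2 were called in C1 and 0 in C3 against CTRL (0.881% and 0.565% of all genes). A filter of at least 5 CPM in 4 libraries gave 3 in C3 against CTRL and 1 in C3 against C1, upper-quartile scaling gave 2 in C3 against CTRL, and DESeq2 gave 6 in C3 against CTRL and 3 in C3 against C2, where 2.28%, 0.855%, 1.38%, 3.66% and 3.62% of all genes were called. Leaving out each library in turn gave 2 to 4 in C1, 6 to 16 in C2 and 0 to 3 in C3 against CTRL, 2 to 6 in C2 and 0 to 2 in C3 against C1, and 0 to 5 in C3 against C2. The shares of all genes called in those fits are not given here, so these ranges cannot be set beside them. Replicate numbers do not pair the libraries (same-numbered libraries correlated at -0.299 to 0.510, and 5 of 16 were closest to their own number). The replicate block gave 4, 14, 1, 6, 2 and 1, where 2.44%, 19.2%, 1.44%, 2.17%, 0.803% and 1.46% of all genes were called. Of 23 calls of single genes 7 held under every alternative, those of Cyp1a2 in C2 against C1, Cyp2a22 in C1, and Cyp2d9, Cyp2d11, Cyp2d40, Cyp2f2 and Cyp2u1 in C2, and 0 reversed. The 3 libraries left out together belong to neither C1 nor CTRL, so the 4 and 14 calls in C1 rest on the same C1 and CTRL libraries. All groups of a fit share 1 estimate of the spread. For Cyp2c54 the change in C1 was 0.85 ± 0.27 with all 16 libraries and 0.84 ± 0.10 without the 3. The cause of the differences between settings was not tested. Depth limits Cyp1a1, Cyp1b1, Cyp2c55 and Cyp2c65, with at most 55 counts per library.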

Other observations

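Liver P450 genes outside families 1 to 3 were called as well. Of 22 tested 2 rose and 2 fell in C1, 3 rose and 7 fell in C2, and 3 fell in C3 (over all genes 2.32%, 18.3% and 1.4% were called). With C2-3, C2-4 and C3-4 left out, 6 rose and 3 fell in C1, 6 rose and 7 fell in C2, and 5 rose and 6 fell in C3. Over all genes 14.6%, 28.0% and 6.09% were then called. Cyp4a14, a fatty acid hydroxylase and PPARalpha target, averaged 26.8 ± 1.84 CPM in C1, against 64.5 ± 7.56 in CTRL (SD, n = 4; -1.27 ± 0.23, edgeR adjusted p = 0.00648) and fell in C3 (-1.04 ± 0.23, edgeR adjusted p = 0.0301). Cyp17a1, a steroid hydroxylase and lyase, averaged 9.43 ± 2.18 CPM in C3, against 24.2 ± 2.08 in CTRL (-1.36 ± 0.20, edgeR adjusted p = 0.00123) and fell in C2 (-1.06 ± 0.20, edgeR adjusted p = 0.00162). Cyp8b1, the sterol 12-alpha-hydroxylase of bile acid synthesis, fell in C2 (-1.04 ± 0.15, edgeR adjusted p = 0.000181), where Cyp4f17 (0.74 ± 0.23, edgeR adjusted p = 0.0336) and Cyp4b1 (0.73 ± 0.14, edgeR adjusted p = 0.0018) rose. In C1 Cyp39a1, an oxysterol hydroxylase, rose (0.93 ± 0.18, edgeR adjusted p = 0.0105), as did Cyp4a32 (0.59 ± 0.11, edgeR adjusted p = 0.0053), and Cyp26a1, which clears retinoic acid, fell (-0.99 ± 0.21, edgeR adjusted p = 0.016). Cyp26b1, its relative, fell in C3 (-0.72 ± 0.15, edgeR adjusted p = 0.0188).

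Of 11 genes of sex-dependent P450 control, Bcl6 rose (0.74 ± 0.18, edgeR adjusted p = 0.0376) and Socs2 fell (-0.55 ± 0.11, edgeR adjusted p = 0.0106) in C1, and Esr1 rose (0.30 ± 0.09, edgeR adjusted p = 0.0322) and Stat5b fell (-0.38 ± 0.08, edgeR adjusted p = 0.00536) in C2. Called genes were 18.2% of the list in C1 and in C2, where 2.32% and 18.3% of all genes were called. The share in C2 is thus near that of all genes. With C2-3, C2-4 and C3-4 left out, 2 rose and 2 fell in C1, 1 rose and 3 fell in C2, and 0 rose and 1 fell in C3. These are 36.4%, 36.4% and 9.09% of the list, where 14.6%, 28.0% and 6.09% of all genes were called. In C3 edgeR called 0 with all 16 libraries, 0 had an unadjusted p under 0.05, and DESeq2 called 0.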
